A study of Phaseolus vulgaris with 18 samples.

Results

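The basic helix-loop-helix (bHLH) transcription factors of the common bean (Phaseolus vulgaris) pod wall were followed across 2 lines and 3 ages. Members were the genes of the authors' table whose description names bHLH, helix-loop-helix or phytochrome interacting factor, with at least 10 counts in at least 3 of the 18 libraries. 151 of the 25124 genes in the table carried such a description and 136 of these reached the counts. The other 15 were counted at most 83 times in any library, and 9 of them reached 10 counts in 1 or 2 libraries. Just inside the threshold, 4 members reached 10 counts in exactly 3 libraries. 124 members were described by the family name alone. The remaining 12 were described more closely, as 7 phytochrome interacting factors (PIFs), 2 cryptochrome-interacting factors, 2 genes that also carry a conserved upstream open reading frame, and 1 gene inducible by abscisic acid.

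The golden line A18-1 makes pods that start green and turn gold while they grow to commercial size, and the green line Renaya keeps green pods until ripening. Pod walls of plants from a climate chamber were taken at 10, 14 and 18 days after flowering (DAF), which gave 3 golden groups and 3 green groups of 3 libraries each. The study's design text calls these independent biological repeats, and it ties the golden trait to a gene named pv-ye. The tissue entry of the labels reads leaf instead of pod wall, and the fruit identity genes described as AGAMOUS-like 8 were read as a check. Of these 3, Phvul.009G203400 had 30.1 to 222 FPKM and was present in all 18 libraries, Phvul.008G027800 reached at most 6.41 FPKM and was at 0 in 2 libraries, and Phvul.004G042450 reached at most 0.227 FPKM and was at 0 in 11 libraries. No treatment was applied, so the groups differ by line and age alone as far as the labels say. How far the 2 genomes differ elsewhere is not stated, so a difference between the lines cannot be tied to pv-ye here.

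A bHLH protein binds DNA as a dimer: the basic region reads an E-box or G-box, and the helix-loop-helix region holds the partners together. In Arabidopsis, PIFs accumulate in the dark, restrain chlorophyll synthesis and chloroplast development, and are destroyed after light activates the phytochromes. Other Arabidopsis members drive the steps of stomatal development, carpel and fruit patterning, flavonoid pigment synthesis and jasmonate responses. Roles named for bean genes are the deposited descriptions and Gene Ontology (GO) terms, which come from similarity to proteins of other species. Levels are given in FPKM, fragments scaled to transcript length and sequencing depth, as the authors deposited them, with replicates 1 to 3 in that order, and means are given ± SD over the 3 libraries of a group. Fold changes are log2 values with a standard error (SE) from 1 edgeR quasi-likelihood fit to the authors' counts, and a gene was called at a Benjamini-Hochberg adjusted p under 0.05 over all 22805 tested genes. A call is given as lost where its adjusted p exceeded 0.05 without the library named or in the other fit named. These other fits were DESeq2, upper-quartile scaling, no low-count filter, limma on log2(FPKM + a pseudocount of 1 or 0.1), and edgeR on only the groups compared.

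Libraries held 48757139 to 74377200 counts, of which the members took 0.204% to 0.289%. On the members alone, the leading principal component took up 39.8% of the variance and the next took up 20.5%. Scores on the leading component ran between -0.51 and 11.8 in golden libraries. Green libraries scored between -17.5 and -15.6 at 10 days, between -10.4 and -4.98 at 14 days and between 2.26 and 3.32 at 18 days. The lowest correlation of member levels between replicates was 0.835, for golden replicates 1 and 2 at 18 days, and the other replicate pairs ran from 0.904 to 0.974. Golden replicate 2 at 18 days also had the highest sum over a list of 85 green tissue genes (photosystem and antenna proteins). That list summed to 38035 to 48215 FPKM in golden and 27041 to 28265 FPKM in green pods at 10 days. It summed to 39695 to 47983 FPKM in golden and 18441 to 21598 FPKM in green pods at 14 days, and to 33343 to 72234 FPKM in golden and 13128 to 25699 FPKM in green pods at 18 days. A list of 175 seed tissue genes summed to 11973 to 13204 FPKM in golden and 6677 to 7311 FPKM in green pods at 10 days, and to 7933 to 8891 FPKM in golden and 9709 to 11937 FPKM in green pods at 14 days. At 18 days the sums overlapped, at 6027 to 9822 FPKM in golden and 6452 to 8573 FPKM in green pods. The typical seed gene did not follow the 10-day sum. Over the 133 tested seed genes the median log2 fold change at 10 days was -0.30, with 18 called higher and 12 lower in golden pods. Of all tested genes, 17.1% were higher and 15.5% lower at that age. The part of these markers in the results below was not tested, and in bulk tissue fewer cells of a type and less RNA per cell cannot be told apart.

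The members were expressed at a median of 5.61 FPKM over all libraries, against 9.71 FPKM for the 22835 genes that met the same count threshold. 52 members averaged over 10 FPKM and 29 averaged under 1 FPKM. The group with the highest mean was golden at 14 days for 39 members, green at 10 days for 33, golden at 18 days for 20, green at 14 days for 17, golden at 10 days for 16 and green at 18 days for 11. 93 members reached 10 counts in every library, 1 reached 10 counts in golden libraries only and 3 in green libraries only. Lower counts in the other line were not excluded by this. 2 members reached 10 counts in a single group. Phvul.002G147100 did not pass the expression filter, which left 135 tested.

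The share of members called was close to the share of all genes in most comparisons. At 10 days, 38 members were called between the lines, 23 higher and 15 lower in golden pods (28.1%), against 32.6% of all tested genes. At 14 days, 60 were called, 37 higher and 23 lower (44.4%), against 41.5% of all genes. The higher calls at 14 days made up 27.4% of the members and 20.4% of all genes, and the lower calls 17.0% and 21.2%. At 18 days, 27 were called, 13 higher and 14 lower (20.0%), against 15.0% of all genes (7.99% higher, 6.99% lower), and 16 were called without green replicate 1. A fit of only the 18-day groups called 6 members. In that fit 18 of the 23 named calls at 18 days were lost, and those of Phvul.007G208500, Phvul.008G133600, Phvul.001G052400, Phvul.002G187950 and Phvul.010G158400;Phvul.010G158500 were kept. Some lost calls had held without any 1 library: Phvul.001G150300 and Phvul.008G050850 (adjusted p = 0.11), Phvul.003G281300 (adjusted p = 0.15) and Phvul.003G243350 (adjusted p = 0.055). Losses of 18-day line calls in that fit are mostly not repeated gene by gene below. Median log2 fold changes of the members were 0.11, 0.26 and 0.10 at 10, 14 and 18 days, against 0.02, -0.01 and -0.02 over all genes.

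Between 10 and 18 days, 25 members were called in the golden line, 8 higher and 17 lower at 18 days (18.5%), against 20.7% of all genes. This count depended on single libraries: it was 14 without 10-day replicate 1, 16 without 10-day replicate 2 or 18-day replicate 1, and 38 without 18-day replicate 2. In the green line 49 members were called, 19 higher and 30 lower at 18 days (36.3%), against 34.9% of all genes. The lower calls in the green line covered 22.2% of the members and 15.6% of all genes, and the higher calls 14.1% and 19.3%. Change over age differed between the lines for 9 members (6.67%), 2 with a positive and 7 with a negative difference, against 9.90% of all genes (3.77% positive, 6.13% negative). That count was 5 without golden 10-day replicate 3 and 20 without golden 18-day replicate 2.

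**Figure D1:**
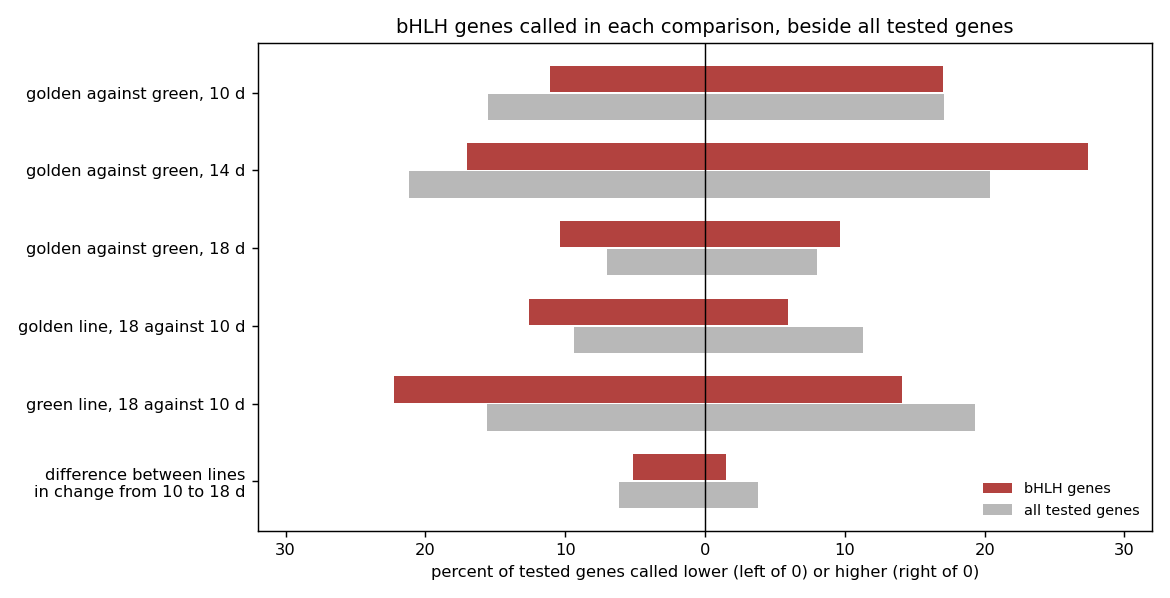
Share of tested genes called lower (left of 0) and higher (right of 0) in each of the 6 comparisons, in percent, for the 135 tested bHLH genes (red) and all 22805 tested genes (grey). The red and grey bars differ most on the higher side of the 14-day comparison of the lines, 27.4% against 20.4%, and on the lower side of the green line's change with age, 22.2% against 15.6%.

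Of the 23 members higher in golden pods at 10 days, 18 were also higher at 14 days, which is 78.3% of the 10-day list and 48.7% of the 14-day list. Over all tested genes these shares were 63.2% and 53.1%. Of the 15 lower at 10 days, 6 were also lower at 14 days, which is 40.0% and 26.1% of the lists, against 73.5% and 53.9% over all genes. The 15 include Phvul.002G088400 and Phvul.006G153300, which reached the counts only in green pods at 10 days. These could not be called at 14 days, so this overlap is in part set by the membership threshold. 6 members (4.44%) were higher in golden pods at all 3 ages (Phvul.007G156200, Phvul.008G181500, Phvul.002G187950, Phvul.002G271000, Phvul.003G016700 and Phvul.001G150300), against 3.50% of all genes. Leaving out 1 library gave 3 to 6, the 3 being without any 1 of the green 18-day libraries, and for Phvul.002G187950 alone all 3 calls held without each library in turn. That gene met the membership threshold only through golden libraries, so its higher calls follow in part from this choice. 2 members (1.48%) were lower at all 3 ages (Phvul.007G208500 and Phvul.001G052400), against 2.68% of all genes, and their calls held without each library in turn. 53 of the 135 (39.3%) were called at no age, against 44.9% of all genes.

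PIFs stood on both sides of the difference between the lines. Among the 7, at 14 days, 2 were higher and 2 lower in golden pods, and at 10 and at 18 days 1 was higher and 1 lower. Called PIFs thus made up 28.6%, 57.1% and 28.6% of the 7 at 10, 14 and 18 days, against 32.6%, 41.5% and 15.0% of all tested genes. Phvul.007G156200 is described as PIF3-like 5, the name of an Arabidopsis repressor of germination and of chlorophyll synthesis, and carries the GO terms chlorophyll biosynthesis and negative regulation of photomorphogenesis. It had 26.0, 24.5 and 22.5 FPKM in golden pods at 10 days, against 10.6, 7.76 and 8.26 FPKM in green pods. At 14 days it had 20.3, 24.6 and 24.4 FPKM in golden and 9.74, 9.20 and 9.11 FPKM in green pods. At 18 days it had 12.6, 20.9 and 14.1 FPKM in golden and 10.7, 13.0 and 6.20 FPKM in green pods. Golden libraries stood above all green ones at 10 and 14 days, and the ranges overlapped at 18 days, where the lowest golden library lay just under the highest green one. The log2 fold changes were 1.45 ± 0.25 (adjusted p = 0.00063) at 10 days, 1.28 ± 0.25 (adjusted p = 0.0011) at 14 days and 0.81 ± 0.24 (adjusted p = 0.036) at 18 days. The 18-day call was lost without golden replicate 2 or green replicate 1 or 3 (adjusted p = 0.058 to 0.15) and with limma at both pseudocounts (adjusted p = 0.058 to 0.061).

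A second PIF3-like 5 gene, Phvul.001G168700 (chromosome 1, 42509553 to 42515317, genome build not given in the sources used here), carries the same GO terms. At 14 days it had 13.1, 13.6 and 6.0 FPKM in golden pods, against 1.88, 1.82 and 3.03 FPKM in green pods, with no overlap (log2 fold change 2.26 ± 0.58 SE, adjusted p = 0.0065). At 10 days it had 6.94, 6.90 and 10.6 FPKM in golden and 3.07, 2.83 and 2.59 FPKM in green pods, also without overlap, and just missed the threshold (log2 fold change 1.53 ± 0.56 SE, adjusted p = 0.051). At 18 days golden pods had 2.43, 10.2 and 3.93 FPKM and green pods 2.03, 4.73 and 0.850 FPKM, and the ranges overlapped (log2 fold change 1.29 ± 0.56 SE, adjusted p = 0.14). The PIF3-like 6 gene Phvul.008G196800, reached at most 0.518 FPKM in any library and was not called at any age.

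The PIF3 gene Phvul.007G208500 went the other way. In Arabidopsis, PIF3 acts with PIF1 to hold back chlorophyll synthesis in seedlings kept in the dark. It had 0.914, 1.70 and 1.52 FPKM in golden pods at 10 days, against 11.3, 4.87 and 6.0 FPKM in green pods. The 14-day values were 1.0, 0.540 and 0.557 FPKM in golden and 6.29, 10.7 and 1.67 FPKM in green pods. The 18-day values were 0.101, 0.137 and 0.160 FPKM in golden and 6.35, 5.43 and 3.25 FPKM in green pods. Every golden library lay below every green library of the same age. Its log2 fold changes were -2.42 ± 0.56 (adjusted p = 0.0048) at 10 days, -3.17 ± 0.58 (adjusted p = 0.00084) at 14 days and -5.07 ± 0.65 (adjusted p = 0.00015) at 18 days, and none of these calls was lost without any 1 library. Within the golden line it was lower at 18 than at 10 days (log2 fold change -3.17 ± 0.61 SE, adjusted p = 0.0032), a call lost with limma at a pseudocount of 1 (adjusted p = 0.082). Within the green line the change was -0.51 ± 0.53 (adjusted p = 0.48).

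The other PIF3 genes and PIF4 showed smaller or no called differences. Phvul.007G206000 (chromosome 7, 32844498 to 32849427) had 3.84, 2.65 and 2.98 FPKM in golden pods at 14 days, against 6.69, 6.34 and 6.85 FPKM in green pods. All golden values were below the green ones (log2 fold change -1.09 ± 0.29 SE, adjusted p = 0.0078), and at 10 and 18 days it was not called. The most abundant PIF3 gene in green pods, Phvul.001G218800, averaged 16.0 ± 7.96 FPKM in golden and 24.2 ± 10.1 FPKM in green pods at 10 days, with overlapping libraries and no call at any age. The PIF4 gene Phvul.006G028500, whose Arabidopsis namesake promotes elongation in shade and warmth, had 0.959, 0.951 and 1.69 FPKM in golden and 3.30, 2.52 and 2.76 FPKM in green pods at 10 days. These did not overlap, yet the gene was not called there (log2 fold change -1.24 ± 0.73 SE, adjusted p = 0.21) or at the later ages, and at 14 days golden libraries spread from 0.903 to 5.11 FPKM.

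**Figure D2:**
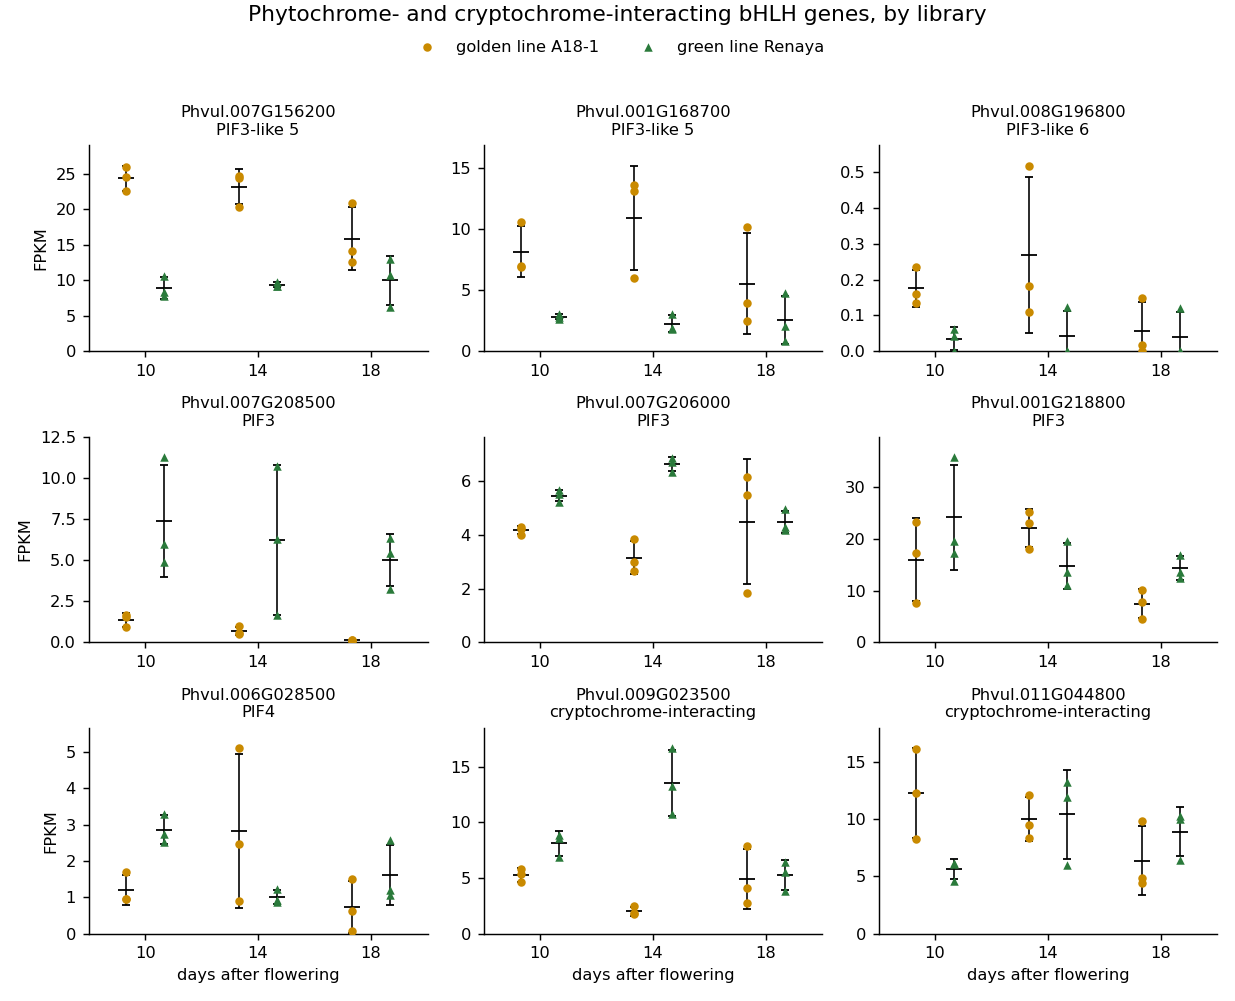
FPKM of the 7 PIF genes and the 2 cryptochrome-interacting genes in each library against days after flowering, golden line A18-1 (circles, left at each age) and green line Renaya (triangles, right), with the mean and SD of 3 libraries as black bars cut at 0. Golden libraries of Phvul.007G156200 lie above the green ones at 10 and 14 days, and golden libraries of Phvul.007G208500 lie below the green ones at all 3 ages.

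The GO term response to blue light marked 5 members, a group put together after the values were seen. 2 were higher in golden pods at 10 days (1 to 2 with any 1 library left out), where 17.1% of all tested genes were, and 3 were lower at 14 days (2 to 3), where 21.2% of all genes were. In Arabidopsis, CIB1 binds cryptochrome 2 under blue light and promotes flowering. Of the 2 genes described as cryptochrome-interacting, Phvul.009G023500 had 1.73, 2.49 and 1.81 FPKM in golden pods at 14 days, against 13.3, 16.7 and 10.7 FPKM in green pods. The groups were far apart at this age (log2 fold change -2.77 ± 0.36 SE, adjusted p = 0.0001), and at 10 and 18 days the gene was not called. The second, Phvul.011G044800, had 16.2, 8.31 and 12.3 FPKM in golden and 6.12, 4.65 and 6.14 FPKM in green pods at 10 days (log2 fold change 1.13 ± 0.36 SE, adjusted p = 0.026). Its groups did not overlap there, but the call was lost without golden replicate 1 or 3 or green replicate 2 or 3 (adjusted p = 0.061 to 0.11).

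Phvul.008G133600, annotated with the response to blue light, had 43.4, 36.8 and 25.8 FPKM in golden and 26.1, 37.8 and 30.1 FPKM in green pods at 10 days, and the ranges overlapped. Golden pods at 14 days had 11.5, 16.3 and 23.6 FPKM and green pods 51.3, 40.9 and 49.5 FPKM. Golden pods at 18 days had 9.47, 5.76 and 9.65 FPKM and green pods 26.9, 37.4 and 26.5 FPKM. Golden pods were below green pods in every library at both later ages. The log2 fold changes were -1.48 ± 0.27 (adjusted p = 0.00081) at 14 days and -1.75 ± 0.27 (adjusted p = 0.00069) at 18 days, and they held without any 1 library. Phvul.010G024800, with the same GO term, was higher in golden pods at 10 days, at 22.7, 14.1 and 14.1 FPKM, against 8.50, 8.94 and 8.13 FPKM in green pods (log2 fold change 1.00 ± 0.23 SE, adjusted p = 0.005). At 18 days it had 8.52, 10.6 and 7.32 FPKM in golden and 12.3, 14.6 and 14.3 FPKM in green pods, without overlap but short of the threshold (log2 fold change -0.51 ± 0.23 SE, adjusted p = 0.16). Another blue light gene, Phvul.001G031300, averaged 16.7 ± 4.85 FPKM in golden and 31.3 ± 3.32 FPKM in green pods at 14 days (log2 fold change -0.93 ± 0.35 SE, adjusted p = 0.045), and that call was lost without golden replicate 1 or 2 or green replicate 1, 2 or 3 (adjusted p of up to 0.15).

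GO terms joined 16 members to light and 6 to growth, groups that were put together after the values were seen and that partly overlap. Of the 16 light members, 3 were higher and 1 lower in golden pods at 10 days, 2 higher and 5 lower at 14 days, and 1 higher and 2 lower at 18 days. The called share of the group was 25.0%, 43.8% and 18.8% at the 3 ages, against the 32.6%, 41.5% and 15.0% of all tested genes. With any 1 library left out, 3 to 4 were lower at 14 days, and 0 to 2 were higher at 18 days. The single lower call at 10 days, Phvul.002G088400, was counted only in green pods at 10 days (1.57, 0.520 and 0.804 FPKM). It thus met the membership threshold only through the group where it was high, and its contrasts with that group follow in part from this choice. At 10 days it was at least 19.4-fold lower in golden pods. That bound uses a floor of 3 counts over the 3 golden libraries, and the call was lost without golden replicate 1, 2 or 3 or green replicate 1, 2 or 3 (adjusted p = 0.07 to 0.1) and with DESeq2 and without the low-count filter (adjusted p of up to 0.31). A steep change with age in the group was that of Phvul.008G041800, annotated with the response to light and the regulation of growth. It had 11.4, 23.8 and 10.9 FPKM at 10, 0.762, 1.04 and 2.35 FPKM at 14 and 0.433, 0.163 and 0.389 FPKM at 18 days in golden pods, and 45.5, 24.0 and 39.7, then 16.3, 12.2 and 7.34, then 1.07, 4.76 and 0.385 FPKM in green pods. Levels fell with age in both lines, by a log2 change at 18 against 10 days of -5.30 ± 0.81 (adjusted p = 0.00088) in golden and -4.09 ± 0.75 (adjusted p = 0.00094) in green pods. Golden pods were lower at 14 days, without overlap (log2 fold change -3.13 ± 0.72 SE, adjusted p = 0.0035), and at 18 days (log2 fold change -2.45 ± 0.74 SE, adjusted p = 0.037). The call was lost without golden replicate 1, 2 or 3 or green replicate 2 (adjusted p = 0.058 to 0.33) and with limma at both pseudocounts (adjusted p = 0.082 to 0.19).

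Of the 6 growth members, 1 was lower in golden pods at 10 days, 1 was higher and 3 lower at 14 days, and 1 was lower at 18 days. With any 1 library left out, none was lower at 10 days, 1 to 2 were lower at 14 days and 0 to 1 at 18 days. The called shares were 16.7%, 66.7% and 16.7%, against 32.6%, 41.5% and 15.0% of all genes. Phvul.004G027700 averaged 2.53 ± 0.905 FPKM in golden and 6.79 ± 1.52 FPKM in green pods at 14 days (log2 fold change -1.44 ± 0.48 SE, adjusted p = 0.026). This was lost without golden replicate 2 or 3 or green replicate 1 or 2 (adjusted p = 0.064 to 0.083). Phvul.002G110500 was slightly higher in golden pods at 14 days, with 15.2, 14.1 and 12.2 FPKM against 9.39, 10.2 and 10.2 FPKM in green pods (log2 fold change 0.46 ± 0.15 SE, adjusted p = 0.022). The golden libraries all lay above the green ones, but the call was lost without golden replicate 1 or 2 or green replicate 1 or 3 (adjusted p = 0.053 to 0.1). Its rise in the green line between 10 and 18 days (0.42 ± 0.15, adjusted p = 0.039) was lost without 18-day replicate 1 or 2 or 10-day replicate 1, 2 or 3 (adjusted p = 0.08 to 0.16) and with upper-quartile scaling, without the low-count filter, in the fit of only the groups compared and with limma at both pseudocounts (adjusted p = 0.053 to 0.13). Phvul.003G067500 was at 0 in green pods at 18 days, at least 18.3-fold lower than at 10 days, and that call was lost without 18-day replicate 1, 2 or 3 or 10-day replicate 1, 2 or 3 (adjusted p = 0.052 to 0.084). Phvul.002G088400, also at 0 in green pods at 18 days, was at least 19.0-fold lower there than at 10 days, a call lost without 18-day replicate 1, 2 or 3 or 10-day replicate 1, 2 or 3 (adjusted p = 0.064 to 0.1) and with DESeq2 (adjusted p = 0.31). This fall too follows in part from its choice as a member through the green 10-day libraries alone.

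Several of the members annotated with stomatal and epidermal development fell with age. In Arabidopsis, the bHLH factors SPEECHLESS, MUTE and FAMA act one after another in the stomatal lineage, with ICE1 and SCREAM2 as partners. GO terms placed 10 members in this group, also put together after the values were seen and including 2 pigment genes described further on. Between 10 and 18 days, 4 of the 10 fell in the golden line, where 9.37% of all tested genes did, and 6 fell in the green line, where 15.6% of all genes did. The others did not pass the test. The 4 in the golden line include the 2 pigment genes. The 6 in the green line include Phvul.006G153300, which met the membership threshold only through the green 10-day libraries. The fall of that gene follows in part from this choice. Leaving out any 1 library gave 2 to 5 lower members in the golden line and 4 to 6 in the green line. The group's median log2 change, with Phvul.006G153300 included, was -0.90 in golden and -2.23 in green pods, against 0.01 and 0.02 over all genes.

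Phvul.003G033900, annotated with guard cell differentiation, had 0.821, 0.724 and 0.378 FPKM in golden pods at 10 days, against 7.70, 8.75 and 8.84 FPKM in green pods. Later, at 14 days, it had 1.17, 1.03 and 0.498 FPKM in golden and 1.03, 0.560 and 0.382 FPKM in green pods, and at 18 days its highest library had 0.462 FPKM. The green 10-day libraries stood alone, several-fold above all others, and the golden ones were all below them. The difference between the lines at 10 days was -3.68 ± 0.95 (adjusted p = 0.0092) and the green line's change to 18 days was -5.19 ± 1.03 (adjusted p = 0.0017), both on the log2 scale. In the golden line the gene was also lower at 18 days (-3.28 ± 1.02, adjusted p = 0.034). Significance was lost without 18-day replicate 1 or 3 or 10-day replicate 1 or 2 (adjusted p = 0.074 to 0.085) and in the fit of only the groups compared (adjusted p = 0.11).

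Phvul.009G162000, annotated with stomatal lineage progression, showed the same contrast, with 0.354, 0.118 and 0.240 FPKM in golden pods at 10 days, against 9.36, 9.16 and 8.70 FPKM in green pods (log2 fold change -5.20 ± 1.26 SE, adjusted p = 0.0064). At 14 and 18 days the highest library was golden replicate 1 at 18 days, with 1.60 FPKM, and the highest of the others had 0.601 FPKM. The green line's change between 10 and 18 days was -6.01 ± 1.32 (adjusted p = 0.0031). Phvul.006G153300 (chromosome 6, 25845504 to 25847264), annotated with stomatal complex development, was at 0 in all 9 golden libraries and had 1.17, 1.74 and 4.16 FPKM in green pods at 10 days. It was at least 83.5-fold lower in golden pods at that age, and this call held without any 1 library. The gene met the membership threshold only through the green 10-day libraries, the group where it was high. Its contrasts with that group follow in part from this choice and are no support for a difference between lines or ages. After 10 days the gene was detected in only 1 green library. Its fall in the green line was called, but not without 18-day replicate 1 or 3 or 10-day replicate 3 (adjusted p = 0.053 to 0.074) and with DESeq2 (adjusted p = 0.16). Phvul.009G137400 had 0 FPKM in golden and 0.0945, 0.207 and 0.945 FPKM in green pods at 14 days, at least 27.9-fold lower in golden. The difference was no longer called without golden replicate 1, 2 or 3 or green replicate 3 (adjusted p = 0.055 to 0.074) and with limma at a pseudocount of 1 (adjusted p = 0.057).

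Other epidermal members did not follow this line contrast. Phvul.010G098500, annotated with epidermal cell fate, had 28.8, 24.2 and 20.7 FPKM in golden and 24.7, 30.4 and 20.6 FPKM in green pods at 10 days. At 18 days it had 2.76, 2.95 and 3.23 FPKM in golden and 7.32, 16.2 and 7.18 FPKM in green pods, so the lines overlapped when young and did not when older. The golden change between those ages was -2.86 ± 0.47 (adjusted p = 0.0012). In the green line its fall was -1.25 ± 0.44 (adjusted p = 0.039), lost without 18-day replicate 1 or 3 or 10-day replicate 1, 2 or 3 (adjusted p = 0.053 to 0.13). The 18-day difference between the lines was -1.64 ± 0.45 (adjusted p = 0.023), lost without golden replicate 1, 2 or 3 or green replicate 2 (adjusted p = 0.056 to 0.11). Phvul.001G085500, annotated with stomatal lineage progression and the response to cold, was higher in golden pods at 14 days, with 18.7, 26.3 and 25.7 FPKM against 10.4, 9.60 and 10.2 FPKM in green pods (log2 fold change 1.21 ± 0.33 SE, adjusted p = 0.0092). Its groups did not overlap there, and a call at 18 days (1.11 ± 0.33, adjusted p = 0.034) was lost without golden replicate 2 or green replicate 1 or 3 (adjusted p = 0.11 to 0.17) and with limma at both pseudocounts (adjusted p = 0.073 to 0.078). Phvul.004G070125;Phvul.004G070150, a locus listed under 2 gene names with the same GO terms, averaged 10.2 ± 1.86 FPKM in golden and 4.40 ± 0.328 FPKM in green pods at 14 days (log2 fold change 1.19 ± 0.41 SE, adjusted p = 0.03), and the call was lost without golden replicate 1 or 2 or green replicate 1, 2 or 3 (adjusted p = 0.062 to 0.096). Phvul.002G290000, annotated with trichome branching, averaged 5.04 ± 1.92 FPKM in golden and 10.8 ± 2.87 FPKM in green pods at 18 days (log2 fold change -0.96 ± 0.29 SE, adjusted p = 0.04). That call was lost without golden replicate 1 or 3 or green replicate 1 or 2 (adjusted p = 0.081 to 0.13).

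Of 5 members with flavonoid or anthocyanin terms, also grouped after the values were seen, 3 were higher in golden pods at 14 days, and 2 to 3 with any 1 library left out, where 20.4% of all tested genes were higher. Phvul.007G171333, annotated with proanthocyanidin synthesis and seed coat development, had 8.89, 7.03 and 5.46 FPKM in golden pods at 14 days, against 1.62, 1.14 and 1.60 FPKM in green pods (log2 fold change 2.26 ± 0.39 SE, adjusted p = 0.00057). At 10 days it had 8.40, 9.09 and 7.48 FPKM in golden and 4.19, 11.2 and 4.01 FPKM in green pods, which overlapped, and at 18 days 1.33, 1.52 and 2.26 FPKM in golden and 0.696, 1.62 and 0.885 FPKM in green pods. The golden 14-day range overlapped the golden 10-day one, and the green 14-day range overlapped the green 18-day one. Between 10 and 18 days it fell in golden (-2.12 ± 0.39, adjusted p = 0.0023) and green pods (-2.53 ± 0.39, adjusted p = 0.00033), and these calls held without any 1 library.

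Phvul.001G150300 carries the same pigment terms and was higher in golden pods at all 3 ages. At 14 days it had 3.83, 3.77 and 2.24 FPKM in golden and 0.698, 0.846 and 1.05 FPKM in green pods (log2 fold change 1.91 ± 0.37 SE, adjusted p = 0.0011). The 18-day values were 0.980, 1.66 and 1.15 FPKM in golden and 0.456, 0.486 and 0.289 FPKM in green pods (log2 fold change 1.76 ± 0.37 SE, adjusted p = 0.0056). No golden library was as low as a green one of the same age. The 10-day difference (1.09 ± 0.36, adjusted p = 0.03) was lost without golden replicate 1 or 3 or green replicate 2 or 3 (adjusted p = 0.057 to 0.15). Between 10 and 18 days it fell in the golden line (-1.26 ± 0.36, adjusted p = 0.024), a call lost without 18-day replicate 1 or 3 or 10-day replicate 1 or 3 (adjusted p = 0.055 to 0.1) and in the fit of only the groups compared (adjusted p = 0.076), and in the green line (-1.92 ± 0.37, adjusted p = 0.0013).

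Jasmonate, defence and wounding terms marked 4 members, of which 2 were lower at 10 days and 2 were higher at 14 days in golden pods. With any 1 library left out, 1 to 2 were lower at 10 days, where 15.5% of all genes were, and 0 to 2 were higher at 14 days, where 20.4% were. Phvul.001G052200 (chromosome 1, 5710684 to 5712150), annotated with the response to jasmonate and anthocyanin synthesis, had 0.0679, 0.178 and 0.286 FPKM in golden pods at 10 days, against 2.51, 1.37 and 1.52 FPKM in green pods (log2 fold change -3.31 ± 0.90 SE, adjusted p = 0.012). Phvul.006G114000, the gene described as inducible by abscisic acid, changed sides. It had 0.439, 1.31 and 1.02 FPKM in golden and 6.21, 1.97 and 2.22 FPKM in green pods at 10 days (log2 fold change -1.91 ± 0.53 SE, adjusted p = 0.013). By 14 days it stood at 2.77, 3.70 and 2.08 FPKM in golden and 0.556, 1.02 and 1.67 FPKM in green pods (log2 fold change 1.40 ± 0.52 SE, adjusted p = 0.042). Neither pair overlapped, but the 10-day call was lost without golden replicate 1 or green replicate 1 (adjusted p = 0.051 to 0.092) and the 14-day call without golden replicate 1 or 2 or green replicate 1 or 2 (adjusted p = 0.077 to 0.15) and with upper-quartile scaling (adjusted p = 0.051). Its fall in the green line (-1.63 ± 0.52, adjusted p = 0.026) was lost without 18-day replicate 1 or 3 or 10-day replicate 1 (adjusted p = 0.078 to 0.2) and in the fit of only the groups compared (adjusted p = 0.059). Phvul.003G285700, annotated with jasmonate and wounding responses, averaged 20.9 ± 5.74 FPKM in golden and 10.8 ± 3.31 FPKM in green pods at 14 days (log2 fold change 0.93 ± 0.26 SE, adjusted p = 0.011). The call was lost without golden replicate 2 or green replicate 1 (adjusted p = 0.052 to 0.069).

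Phvul.002G141500, the abundant member of this group, annotated with defence and anthocyanin synthesis, was not called between the lines. In golden pods it had 36.2, 30.6 and 26.3 FPKM at 10 days, 75.6, 83.1 and 66.0 FPKM at 14 days and 162, 58.6 and 80.3 FPKM at 18 days. The 18-day golden libraries were all above the 10-day ones (log2 fold change 1.87 ± 0.34 SE, adjusted p = 0.0022), with replicate 1 by far the highest. In green pods its change between 10 and 18 days was 0.60 ± 0.33 (adjusted p = 0.17).

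GO terms for carpel, fruit and flower marked 8 members, grouped after the values were seen. Of these, 2 were higher in golden pods at 10 days, and 1 was higher and 1 lower at 14 and at 18 days. That is 25.0% called at each age, against 32.6%, 41.5% and 15.0% of all genes at 10, 14 and 18 days. Phvul.002G271000, annotated with carpel formation and the transmitting tissue, had 6.63, 3.94 and 3.20 FPKM in golden pods at 10 days, against 0.00716, 0.255 and 0.166 FPKM in green pods. By 14 days it stood at 9.41, 5.80 and 3.21 FPKM in golden and 0.189, 0.479 and 0.402 FPKM in green pods. By 18 days it stood at 13.8, 2.23 and 18.0 FPKM in golden and 2.39, 2.20 and 0.167 FPKM in green pods. Golden libraries were above green ones at 10 and 14 days, and at 18 days golden replicate 2 fell within the green range. The log2 fold changes were 4.95 ± 1.02 (adjusted p = 0.0023) at 10 days, 4.07 ± 0.96 (adjusted p = 0.0039) at 14 days and 2.93 ± 0.89 (adjusted p = 0.039) at 18 days, the last lost without golden replicate 1 or 3 or green replicate 1, 2 or 3 (adjusted p = 0.056 to 0.11). A second gene with these terms, Phvul.003G243350, was lower in golden pods at 18 days, with 0.502, 0.518 and 0.455 FPKM against 6.10, 1.72 and 7.81 FPKM in green pods, without overlap (log2 fold change -3.26 ± 0.78 SE, adjusted p = 0.012). In the green line it was higher at 18 than at 10 days (2.15 ± 0.74, adjusted p = 0.036). This was lost without 18-day replicate 1 or 3 or 10-day replicate 1 or 2 (adjusted p = 0.088 to 0.12). Phvul.003G242900, annotated with fruit and carpel development, fell in the green line (-2.13 ± 0.68, adjusted p = 0.026), also lost without 18-day replicate 1 or 3 or 10-day replicate 2 (adjusted p = 0.085 to 0.11) and in the fit of only the groups compared (adjusted p = 0.088).

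Among 4 members annotated with anther and pollen development, Phvul.002G187950 was counted almost only in golden pods. It had 1.65, 2.07 and 1.75 FPKM in golden pods at 10 days, against 0.0675, 0 and 0 FPKM in green pods. At 14 days it had 1.99, 2.55 and 1.71 FPKM in golden and 0, 0.0438 and 0.0422 FPKM in green pods. At 18 days it had 1.93, 1.46 and 3.10 FPKM in golden and 0, 0.0349 and 0 FPKM in green pods. The lowest golden library had 1.46 FPKM and the highest green library 0.0675 FPKM. The log2 fold changes were 6.08 ± 1.13 (adjusted p = 0.0012), 6.12 ± 1.13 (adjusted p = 0.0009) and 7.37 ± 1.22 (adjusted p = 0.0012) at 10, 14 and 18 days, and none was lost without any 1 library. The gene reached 10 counts in golden libraries only, so it met the membership threshold only through the line where it was high. Its contrasts between the lines follow in part from this choice and are no support for a difference between them. Phvul.003G281300, with the same terms, reached at most 0.863 FPKM and was lower in golden pods at 18 days (0.0392, 0.0452 and 0 FPKM, against 0.696, 0.863 and 0.197 FPKM in green pods; log2 fold change -4.09 ± 0.99 SE, adjusted p = 0.013).

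The largest difference between group means in FPKM among the 136 members was that of a gene known only by its family, at 14 days. Phvul.005G036900 had 132, 126 and 41.0 FPKM in golden pods at 14 days, against 2.88, 5.42 and 5.65 FPKM in green pods (log2 fold change 4.41 ± 0.72 SE, adjusted p = 0.00041). At 10 days it had 27.1, 32.6 and 57.4 FPKM in golden and 8.0, 3.14 and 2.86 FPKM in green pods (log2 fold change 3.06 ± 0.68 SE, adjusted p = 0.0037), and at 18 days the lines overlapped, with means of 18.3 FPKM in golden and 12.1 FPKM in green pods. The golden libraries were above the green ones at both earlier ages. Phvul.010G070600, annotated with double fertilization, had 66.6, 55.7 and 63.4 FPKM in golden and 14.5, 13.8 and 12.8 FPKM in green pods at 10 days (log2 fold change 2.18 ± 0.27 SE, adjusted p = 6e-05). At 14 days it had 85.9, 57.6 and 58.1 FPKM in golden and 14.1, 20.9 and 17.2 FPKM in green pods (log2 fold change 1.93 ± 0.27 SE, adjusted p = 0.00015). Neither pair of groups overlapped, and in green pods the gene was higher at 18 than at 10 days (1.33 ± 0.26, adjusted p = 0.0016).

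Phvul.009G179600 had 52.0, 32.2 and 17.9 FPKM in golden and 3.50, 4.23 and 2.87 FPKM in green pods at 14 days (log2 fold change 3.23 ± 0.51 SE, adjusted p = 0.00034), and golden replicate 1 was the highest. Phvul.008G144300, annotated with double fertilization like Phvul.010G070600, had 6.80, 7.11 and 12.7 FPKM in golden and 2.37, 1.37 and 1.49 FPKM in green pods at 10 days (log2 fold change 2.34 ± 0.55 SE, adjusted p = 0.0053) and remained higher at 14 days (2.70 ± 0.56, adjusted p = 0.0019). Phvul.003G058800 had 39.3, 31.5 and 18.0 FPKM in golden and 6.15, 8.95 and 10.8 FPKM in green pods at 14 days (log2 fold change 1.77 ± 0.30 SE, adjusted p = 0.00051), and rose in the green line (1.98 ± 0.30, adjusted p = 0.00028). These 3 genes did not overlap between the lines at those ages. The smaller 10-day difference of Phvul.003G058800 (1.06 ± 0.29, adjusted p = 0.013) was lost without green replicate 2 (adjusted p = 0.06). Phvul.008G181500 averaged 22.4 ± 2.45 FPKM in golden and 4.75 ± 1.91 FPKM in green pods at 10 days (log2 fold change 2.24 ± 0.43 SE, adjusted p = 0.0015). It was also called at 14 days (1.30 ± 0.42, adjusted p = 0.023), except without golden replicate 3 or green replicate 1 or 3 (adjusted p = 0.072 to 0.098), and at 18 days (1.47 ± 0.42, adjusted p = 0.029), except without golden replicate 2 or green replicate 1, 2 or 3 (adjusted p = 0.053 to 0.15) and with limma at both pseudocounts (adjusted p = 0.053 to 0.056).

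Phvul.006G196600 stood out at 14 and 18 days. It had 14.2, 20.6 and 16.4 FPKM in golden and 0.742, 0.289 and 4.22 FPKM in green pods at 14 days (log2 fold change 3.30 ± 0.91 SE, adjusted p = 0.0097). The 18-day values were 2.08, 5.93 and 4.14 FPKM in golden and 0.244, 0.737 and 0 FPKM in green pods (log2 fold change 3.75 ± 0.96 SE, adjusted p = 0.017). The groups did not overlap at either age, though the 18-day call was lost without green replicate 1 (adjusted p = 0.055) and in the fit of only the groups compared (adjusted p = 0.17). In the green line it fell between 10 and 18 days (-4.15 ± 0.97, adjusted p = 0.0046). Phvul.003G199500 was at 0 in green pods at 10 days and had 0.147, 0.526 and 0.664 FPKM in golden pods, at least 17.0-fold higher. Significance was lost without golden replicate 2 or 3 or green replicate 1, 2 or 3 (adjusted p = 0.053 to 0.075) and with limma at both pseudocounts (adjusted p = 0.1 to 0.45). At 14 days it had 7.58, 8.14 and 1.61 FPKM in golden and 0, 0.0827 and 0 FPKM in green pods, without overlap. The sums were 758 counts in golden and 3 counts in green pods, a ratio of 229.8 per total count with a 95% exact (Clopper-Pearson) interval of 78.3 to 1117 that covers counting error only, and the call held without any 1 library (adjusted p = 0.0052). In the green line it was at least 69.3-fold higher at 18 than at 10 days, a call lost in the fit of only the groups compared and with limma at a pseudocount of 1 (adjusted p = 0.066). Phvul.011G119500 had 2.20, 8.86 and 2.11 FPKM in golden and 0, 0.310 and 0.414 FPKM in green pods at 14 days (log2 fold change 4.16 ± 1.32 SE, adjusted p = 0.021), lost without golden replicate 2 or green replicate 1 or 2 (adjusted p = 0.051 to 0.086), and rose in the green line (5.45 ± 1.46, adjusted p = 0.01). Phvul.007G257100 averaged 0.518 ± 0.115 FPKM in golden and 0.0486 ± 0.0471 FPKM in green pods at 10 days (log2 fold change 3.29 ± 0.90 SE, adjusted p = 0.012), lost with limma at a pseudocount of 1 (adjusted p = 0.23).

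At 18 days the members highest over green pods by fold included 3 whose golden libraries disagreed with each other. Phvul.003G231100 had 2.20, 12.9 and 3.41 FPKM in golden and 1.10, 1.29 and 1.67 FPKM in green pods (log2 fold change 2.34 ± 0.59 SE, adjusted p = 0.015), and golden replicate 2 was the highest. Phvul.007G041200 had 63.0, 14.5 and 53.8 FPKM in golden and 15.4, 10.4 and 26.0 FPKM in green pods (log2 fold change 1.43 ± 0.41 SE, adjusted p = 0.029), and here golden replicate 2 was the lowest. Phvul.001G159600;Phvul.001G159700, a locus under 2 gene names whose description also gives a conserved upstream open reading frame, had 53.0, 17.1 and 67.7 FPKM in golden and 18.4, 19.2 and 28.7 FPKM in green pods (log2 fold change 1.15 ± 0.34 SE, adjusted p = 0.037). The first of these calls was lost without golden replicate 2 or green replicate 1 or 2 (adjusted p = 0.051 to 0.095) and with limma at a pseudocount of 1 (adjusted p = 0.052), the second without golden replicate 1 or 3 or green replicate 1 or 2 (adjusted p = 0.079 to 0.11) and with limma at both pseudocounts (adjusted p = 0.076 to 0.078), and the last without golden replicate 1 or 3 or green replicate 1 or 2 (adjusted p = 0.091 to 0.15) and with limma at both pseudocounts (adjusted p = 0.13 to 0.14). Groups overlapped for the last 2 genes.

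**Figure D3:**
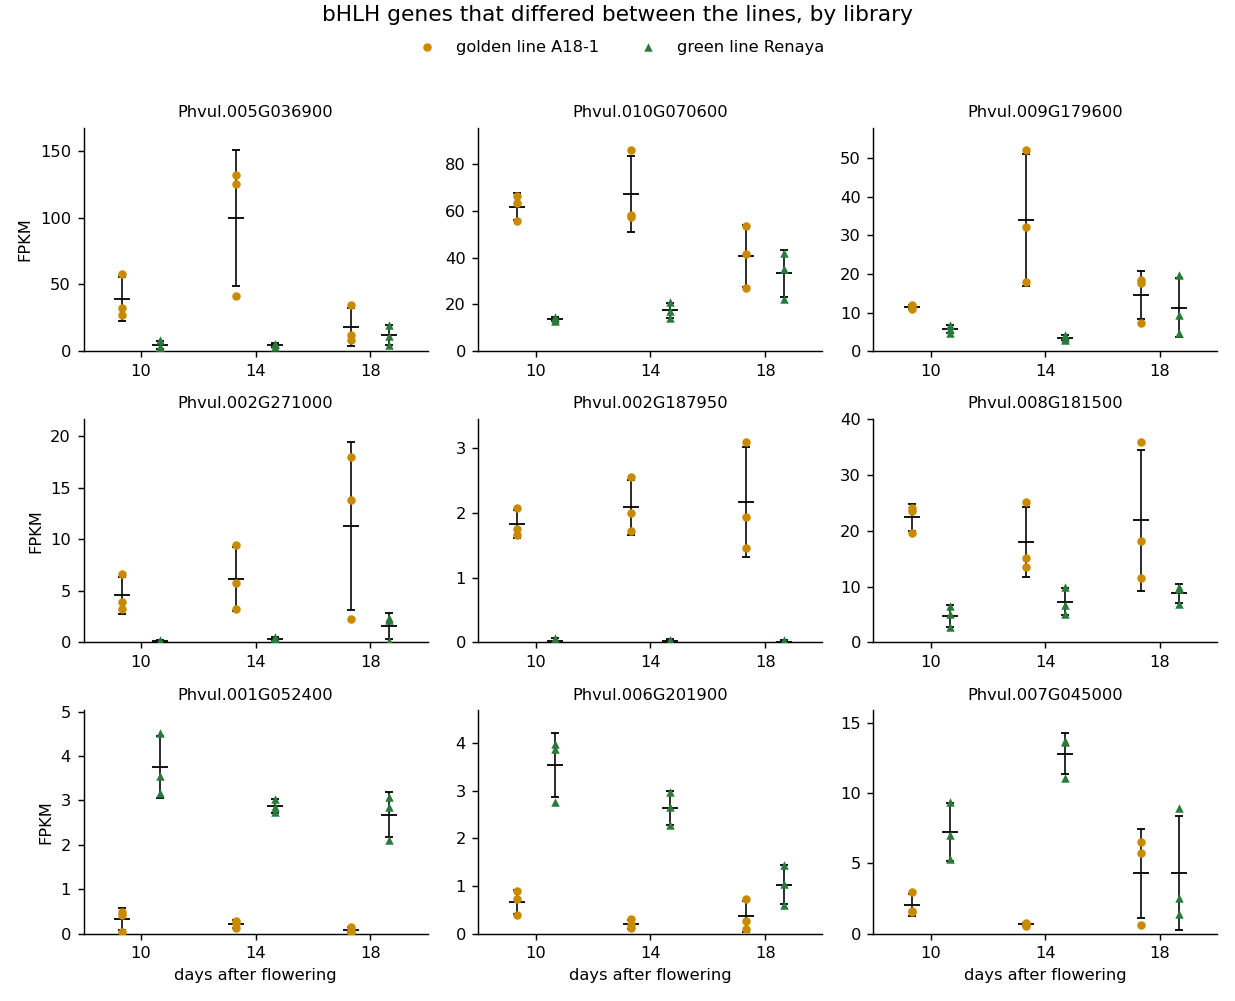
FPKM of 9 bHLH genes with differences between the lines, in each library against days after flowering, golden line A18-1 (circles, left at each age) and green line Renaya (triangles, right), with the mean and SD of 3 libraries as black bars cut at 0. The first 6 genes are higher in golden pods at 10 or 14 days, and the last 3 are lower in golden pods at 14 days, where no golden library reaches a green one.

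On the lower side, Phvul.001G052400, known only by its family, was the member besides the PIF3 gene that was lower in golden pods at all 3 ages. It had 0.495, 0.0396 and 0.427 FPKM in golden pods at 10 days, against 3.18, 3.55 and 4.52 FPKM in green pods. The 14-day values were 0.292, 0.249 and 0.124 FPKM in golden and 3.03, 2.73 and 2.86 FPKM in green pods. The 18-day values were 0.0332, 0.0756 and 0.150 FPKM in golden and 2.11, 3.07 and 2.86 FPKM in green pods. The highest golden library lay at 0.495 FPKM and the lowest green one at 2.11 FPKM. The log2 fold changes were -3.51 ± 0.64 (adjusted p = 0.0011), -3.67 ± 0.65 (adjusted p = 0.0007) and -4.80 ± 0.70 (adjusted p = 0.00042), and they held without any 1 library. Its gene number follows closely on that of the jasmonate gene Phvul.001G052200. How alike the sequences of these neighbours are, and whether they share reads, was not tested.

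Phvul.006G201900, annotated with meiotic recombination, had 0.887, 0.733 and 0.384 FPKM in golden and 2.76, 3.98 and 3.88 FPKM in green pods at 10 days (log2 fold change -2.39 ± 0.58 SE, adjusted p = 0.0062). By 14 days it stood at 0.171, 0.108 and 0.300 FPKM in golden and 2.28, 2.66 and 2.98 FPKM in green pods (log2 fold change -3.78 ± 0.62 SE, adjusted p = 0.00043). Its fall in the green line (-1.72 ± 0.56, adjusted p = 0.029) was lost without 18-day replicate 1 or 2 or 10-day replicate 2 or 3 (adjusted p = 0.062 to 0.11). Phvul.007G045000 had 0.706, 0.554 and 0.742 FPKM in golden and 13.7, 13.6 and 11.1 FPKM in green pods at 14 days (log2 fold change -4.28 ± 0.77 SE, adjusted p = 0.00077), and at 18 days the lines overlapped. Phvul.006G093900 had 0.653, 0.689 and 3.29 FPKM in golden and 21.5, 10.0 and 13.0 FPKM in green pods at 14 days (log2 fold change -3.29 ± 0.65 SE, adjusted p = 0.0014). Golden values were below all green ones for these 3 genes at 14 days. Phvul.006G093900 also fell with age in the golden line (-2.12 ± 0.63, adjusted p = 0.028), a call lost without 18-day replicate 1, 2 or 3 or 10-day replicate 1 or 2 (adjusted p = 0.052 to 0.087), and in the green line (-2.38 ± 0.63, adjusted p = 0.0092).

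Phvul.003G060700 fell steeply with age in both lines. It had 2.19, 1.95 and 1.11 FPKM in golden and 8.47, 11.1 and 10.9 FPKM in green pods at 10 days, and at 18 days the highest library of either line had 0.171 FPKM. The log2 change between 10 and 18 days was -3.55 ± 0.89 (adjusted p = 0.013) in golden and -6.26 ± 1.00 (adjusted p = 0.00038) in green pods. Between the lines it was lower in golden pods at 14 days (-3.35 ± 0.87, adjusted p = 0.0073), a call lost in the fit of only the groups compared (adjusted p = 0.086), and at 10 days (-2.52 ± 0.82, adjusted p = 0.029), the 10-day call being lost without golden replicate 1, 2 or 3 or green replicate 2 or 3 (adjusted p = 0.061 to 0.11). Phvul.010G042700 also fell in both lines, averaging 1.08 ± 0.598 FPKM at 18 and 9.67 ± 1.19 FPKM at 10 days in golden pods (log2 fold change -2.99 ± 0.67 SE, adjusted p = 0.007). Its fall in green pods (-2.01 ± 0.64, adjusted p = 0.024) was lost without 18-day replicate 2 or 10-day replicate 1 or 3 (adjusted p = 0.053 to 0.079) and in the fit of only the groups compared (adjusted p = 0.088). Golden pods were lower at 14 days (-1.90 ± 0.64, adjusted p = 0.027), except without golden replicate 1 or 2 or green replicate 3 (adjusted p = 0.08 to 0.093), and at 18 days (-2.20 ± 0.65, adjusted p = 0.035), except without golden replicate 1, 2 or 3 or green replicate 1 (adjusted p = 0.057 to 0.24) and with limma at both pseudocounts (adjusted p = 0.068 to 0.093).

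A run of neighbouring members by gene number, Phvul.010G158200, Phvul.010G158400;Phvul.010G158500 and Phvul.010G158600, was lower in golden than in green pods at 10 days. Phvul.010G158200 had 22.8, 21.1 and 14.9 FPKM in golden pods at 10 days, against 102, 57.3 and 91.6 FPKM in green pods. By 18 days it had 0.450, 0.810 and 2.35 FPKM in golden and 3.98, 5.45 and 1.48 FPKM in green pods, and it had fallen in golden (-3.87 ± 0.72, adjusted p = 0.0027) and green pods (-4.47 ± 0.73, adjusted p = 0.00045). Golden pods had less at 10 days without overlap (log2 fold change -2.09 ± 0.66 SE, adjusted p = 0.024). The difference was no longer called without golden replicate 1, 2 or 3 or green replicate 1 or 3 (adjusted p = 0.054 to 0.093). The middle locus had 0.417, 0.750 and 0.344 FPKM in golden and 11.3, 3.02 and 3.83 FPKM in green pods at 10 days (log2 fold change -3.56 ± 0.61 SE, adjusted p = 0.00064). At 18 days it had 0.0838, 0.229 and 0.231 FPKM in golden and 1.12, 4.26 and 2.10 FPKM in green pods (log2 fold change -3.59 ± 0.62 SE, adjusted p = 0.0015). These groups did not overlap, and both calls held without any 1 library. Between 10 and 18 days the green libraries of the middle locus overlapped, with replicate 1 the highest at 10 days. Its change with age was called in neither line.

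Phvul.010G158600 had 12.7, 10.5 and 12.7 FPKM in golden and 39.1, 20.4 and 46.0 FPKM in green pods at 10 days (log2 fold change -1.55 ± 0.52 SE, adjusted p = 0.033). That call was lost without golden replicate 1, 2 or 3 or green replicate 1 or 3 (adjusted p = 0.072 to 0.11). At 18 days it had 1.42, 0.917 and 2.0 FPKM in golden and 0.511, 0.652 and 0.972 FPKM in green pods, and the ranges, apart at 10 days, overlapped by then. A 14-day difference (-1.51 ± 0.52, adjusted p = 0.031) was lost without golden replicate 1 or 2 or green replicate 1 (adjusted p = 0.097 to 0.25) and in the fit of only the groups compared (adjusted p = 0.12). A second neighbouring pair, Phvul.008G050850 and Phvul.008G050901, was lower in golden pods at 18 days. Phvul.008G050850 had 0.971, 0.154 and 1.47 FPKM in golden and 17.6, 4.94 and 5.60 FPKM in green pods (log2 fold change -3.34 ± 0.66 SE, adjusted p = 0.0037), without overlap. At 14 days the same gene was higher in golden pods (1.79 ± 0.62, adjusted p = 0.032). The call was lost without golden replicate 3 or green replicate 1 or 3 (adjusted p = 0.085 to 0.1). Phvul.008G050901 averaged 0.137 ± 0.0743 FPKM in golden and 1.53 ± 1.23 FPKM in green pods at 18 days (log2 fold change -3.23 ± 0.90 SE, adjusted p = 0.026), lost without golden replicate 2 or 3 or green replicate 1 (adjusted p = 0.08 to 0.11).

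**Figure D4:**
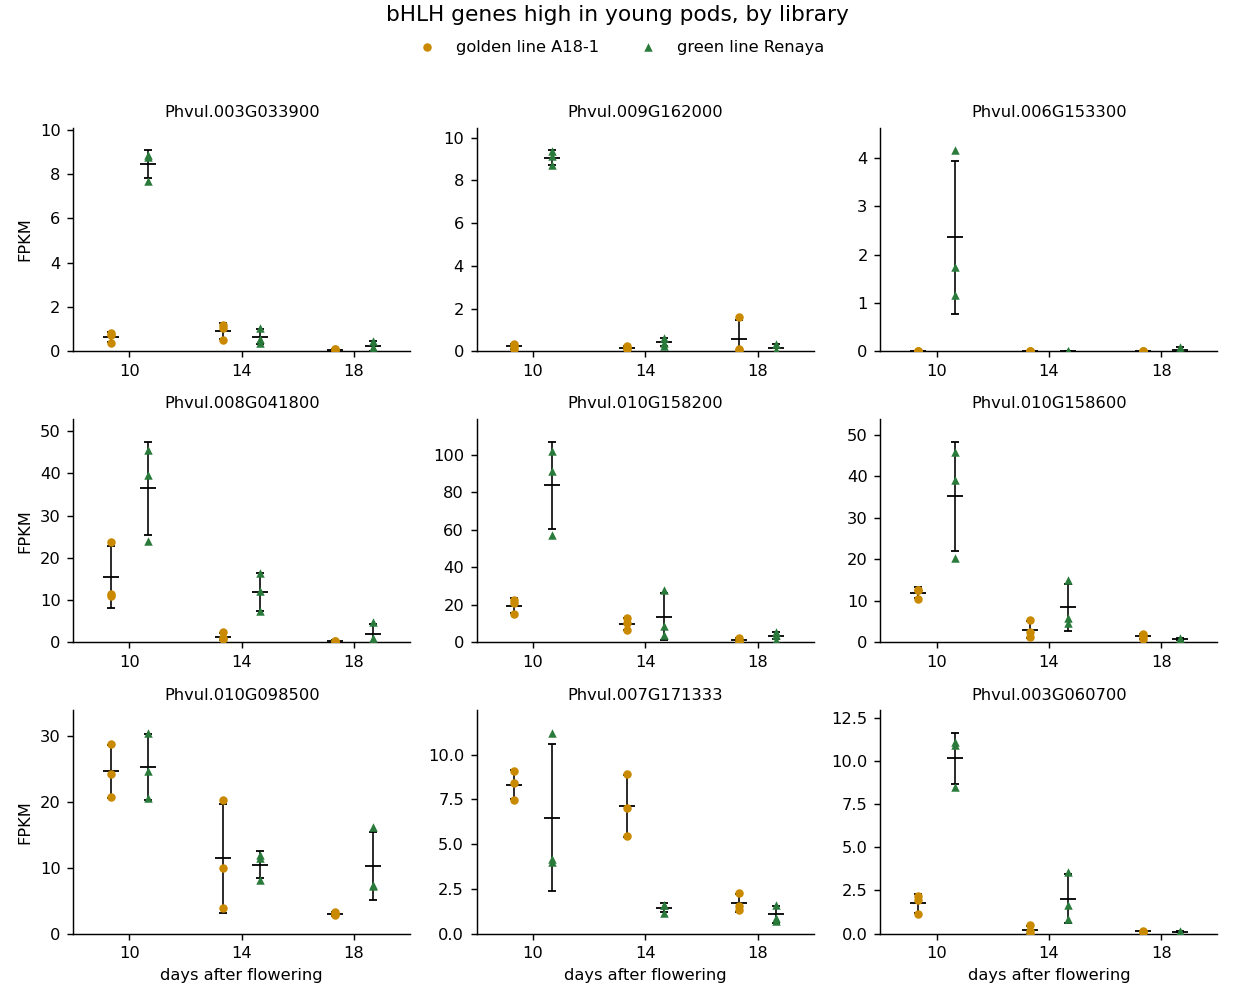
FPKM of 9 bHLH genes that were high in 10-day pods of the green line or of both lines, in each library against days after flowering, golden line A18-1 (circles, left at each age) and green line Renaya (triangles, right), with the mean and SD of 3 libraries as black bars cut at 0. In golden pods, Phvul.003G033900 and Phvul.009G162000 were not highest at 10 days, and Phvul.006G153300 was at 0 in every library. The stomatal genes Phvul.003G033900, Phvul.009G162000 and Phvul.006G153300 stand above 1 FPKM in the green 10-day libraries, where no golden 10-day library reaches 1 FPKM. Phvul.006G153300 met the membership threshold only through those green libraries, so its contrast follows in part from this choice.

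Members that rose between 10 and 18 days numbered 8 in the golden line, where 11.3% of all genes rose, and 19 in the green line, where 19.3% did. Phvul.003G284500 averaged 12.8 ± 7.61 FPKM at 18 and 2.54 ± 1.26 FPKM at 10 days in golden pods (log2 fold change 2.50 ± 0.71 SE, adjusted p = 0.023). This was lost without 18-day replicate 1 or 10-day replicate 2 or 3 (adjusted p = 0.079 to 0.086). Phvul.007G257100 rose in the golden line (2.48 ± 0.81, adjusted p = 0.042), a call lost without 18-day replicate 1 or 3 or 10-day replicate 1, 2 or 3 (adjusted p = 0.081 to 0.13), and in the green line (4.71 ± 0.93, adjusted p = 0.0016). Phvul.009G207550 rose in the golden line (2.98 ± 0.99, adjusted p = 0.045), except without 18-day replicate 1 or 2 or 10-day replicate 1, 2 or 3 (adjusted p = 0.055 to 0.13) and with upper-quartile scaling and in the fit of only the groups compared (adjusted p = 0.051 to 0.12). Phvul.007G041200, which separated the lines at 18 days, rose in golden pods as well (1.47 ± 0.41, adjusted p = 0.021), except without 18-day replicate 1 or 3 or 10-day replicate 2 or 3 (adjusted p = 0.06 to 0.095) and in the fit of only the groups compared and with limma at both pseudocounts (adjusted p = 0.085 to 0.11). In the green line, Phvul.005G112500 rose (2.93 ± 0.76, adjusted p = 0.0087), as did Phvul.001G244500 (1.44 ± 0.29, adjusted p = 0.0019). Phvul.002G271000 rose there too (3.47 ± 0.98, adjusted p = 0.013), a call lost in the fit of only the groups compared and with limma at a pseudocount of 1 (adjusted p = 0.072 to 0.16). Phvul.005G169500 fell there, with 0.118, 0 and 0 FPKM at 18 and 0.727, 1.07 and 1.37 FPKM at 10 days, without overlap (log2 fold change -4.47 ± 1.20 SE, adjusted p = 0.01). That fall was lost in the fit of only the groups compared (adjusted p = 0.052). Phvul.003G231100 fell in the green line too (-1.70 ± 0.58, adjusted p = 0.033). Significance was lost without 18-day replicate 1 or 2 or 10-day replicate 1, 2 or 3 (adjusted p = 0.056 to 0.11).

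The most abundant member, Phvul.011G141300, had 97.2, 139 and 99.4 FPKM in golden and 92.5, 92.8 and 104 FPKM in green pods at 14 days and was not called in any comparison. Phvul.003G116200 was lower in golden pods at 14 days, with 36.8, 25.2 and 44.8 FPKM against 63.4, 73.9 and 66.8 FPKM in green pods (log2 fold change -0.95 ± 0.27 SE, adjusted p = 0.013). Those groups did not overlap, and the call was lost without golden replicate 2 (adjusted p = 0.057). In green pods it rose between 10 and 18 days (1.38 ± 0.28, adjusted p = 0.0017). Phvul.007G202200 rose in the golden line, with 137, 50.1 and 54.6 FPKM at 18 and 33.8, 39.0 and 32.3 FPKM at 10 days (log2 fold change 1.39 ± 0.37 SE, adjusted p = 0.018). The difference was no longer called without 18-day replicate 1 or 10-day replicate 1 or 3 (adjusted p = 0.059 to 0.1) and in the fit of only the groups compared and with limma at both pseudocounts (adjusted p = 0.052 to 0.071). Replicate 1 carried most of that rise. Phvul.002G194350;Phvul.002G194400, the second locus described with a conserved upstream open reading frame, averaged 53.9 ± 2.46 FPKM in golden and 39.5 ± 2.16 FPKM in green pods at 10 days and was not called in any comparison. Phvul.007G187500 was higher at 18 than at 10 days in golden (0.74 ± 0.25, adjusted p = 0.045) and green pods (0.73 ± 0.25, adjusted p = 0.032). The golden call was lost without 18-day replicate 1 or 3 or 10-day replicate 1, 2 or 3 (adjusted p = 0.069 to 0.2) and with upper-quartile scaling, in the fit of only the groups compared and with limma at both pseudocounts (adjusted p = 0.067 to 0.16), and the green call without 18-day replicate 1 or 10-day replicate 1, 2 or 3 (adjusted p = 0.065 to 0.15) and with limma at both pseudocounts (adjusted p = 0.065 to 0.066).

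Whether the lines changed differently with age was tested as the golden log2 change between 10 and 18 days minus the green one. The smallest adjusted p was that of Phvul.006G198400, known only by its family. It had 16.2, 33.4 and 22.6 FPKM at 18 and 21.3, 28.3 and 31.4 FPKM at 10 days in golden pods, and 64.6, 54.5 and 58.5 FPKM at 18 and 11.7, 7.22 and 11.4 FPKM at 10 days in green pods. Green libraries rose several-fold without overlap, while golden ones overlapped between the ages. The difference of changes was -2.58 ± 0.45 (adjusted p = 0.0033), made of 0.03 ± 0.31 (adjusted p = 0.97) in golden and 2.61 ± 0.33 (adjusted p = 8.6e-05) in green pods. Golden pods were higher at 10 days (1.42 ± 0.32, adjusted p = 0.0041) and lower at 18 days (-1.16 ± 0.32, adjusted p = 0.023), the 18-day call being lost without golden replicate 1 or 3 or green replicate 1 or 3 (adjusted p = 0.054 to 0.079).

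The blue light gene Phvul.008G133600 fell in golden pods (-1.92 ± 0.27, adjusted p = 0.00055), while its change in green pods was 0.01 ± 0.26 (adjusted p = 0.98), a difference of -1.93 ± 0.38 (adjusted p = 0.0062). Phvul.010G024800 moved in opposite directions, -0.75 ± 0.23 (adjusted p = 0.032) in golden and 0.75 ± 0.23 (adjusted p = 0.021) in green pods, a difference of -1.51 ± 0.33 (adjusted p = 0.011). Its golden change was lost without 18-day replicate 1 or 3 or 10-day replicate 1 (adjusted p = 0.081 to 0.17) and in the fit of only the groups compared (adjusted p = 0.12) and its green change without 18-day replicate 3 or 10-day replicate 1, 2 or 3 (adjusted p of up to 0.071), while the difference held without any 1 library. Phvul.010G070600 differed by -1.75 ± 0.37 (adjusted p = 0.0094). These 3 differences and that of Phvul.006G198400 were the 4 that held without any 1 library.

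The other 5 differences each depended on at least 1 library. Phvul.007G272600 averaged 49.3 ± 3.13 FPKM at 18 and 46.7 ± 3.68 FPKM at 10 days in golden pods, and 60.5 ± 5.42 FPKM at 18 and 32.1 ± 0.853 FPKM at 10 days in green pods. Its difference of changes (-0.72 ± 0.17, adjusted p = 0.018) was lost without golden 10-day replicate 3 or green 10-day replicate 2 (adjusted p = 0.053 to 0.062), its green rise was called (0.98 ± 0.12, adjusted p = 7.5e-05), and at 10 days it was higher in golden pods (0.55 ± 0.12, adjusted p = 0.0036). Phvul.001G244500 had 42.1, 36.2 and 41.3 FPKM in golden and 16.3, 9.83 and 10.6 FPKM in green pods at 10 days (log2 fold change 1.70 ± 0.29 SE, adjusted p = 0.00071) and was also higher in golden pods at 14 days (1.24 ± 0.29, adjusted p = 0.004). The lines met at 18 days, where they overlapped, and the difference of changes (-1.38 ± 0.41, adjusted p = 0.045) was lost without golden 18-day replicate 1 or 3, green 18-day replicate 1 or 2, golden 10-day replicate 1, 2 or 3 or green 10-day replicate 2 or 3 (adjusted p = 0.067 to 0.11) and in the fit of only the groups compared (adjusted p = 0.088). For the stomatal gene Phvul.009G162000 the difference was 7.47 ± 1.69 (adjusted p = 0.014), lost without golden 18-day replicate 1 (adjusted p = 0.051). For Phvul.010G158600 it was 2.67 ± 0.75 (adjusted p = 0.037), with a golden change of -2.88 ± 0.55 (adjusted p = 0.003) and a green change of -5.54 ± 0.62 (adjusted p = 4.3e-05). It was lost without golden 18-day replicate 1 or 3, green 18-day replicate 1 or 2, golden 10-day replicate 1, 2 or 3 or green 10-day replicate 1 or 3 (adjusted p = 0.06 to 0.091). For the PIF3 gene Phvul.007G208500 it was -2.66 ± 0.79 (adjusted p = 0.047), lost without golden 18-day replicate 1, 2 or 3, green 18-day replicate 1 or 2, golden 10-day replicate 1, 2 or 3 or green 10-day replicate 2 or 3 (adjusted p = 0.052 to 0.11) and without the low-count filter and with limma at both pseudocounts (adjusted p = 0.052 to 0.53).

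**Figure D5:**
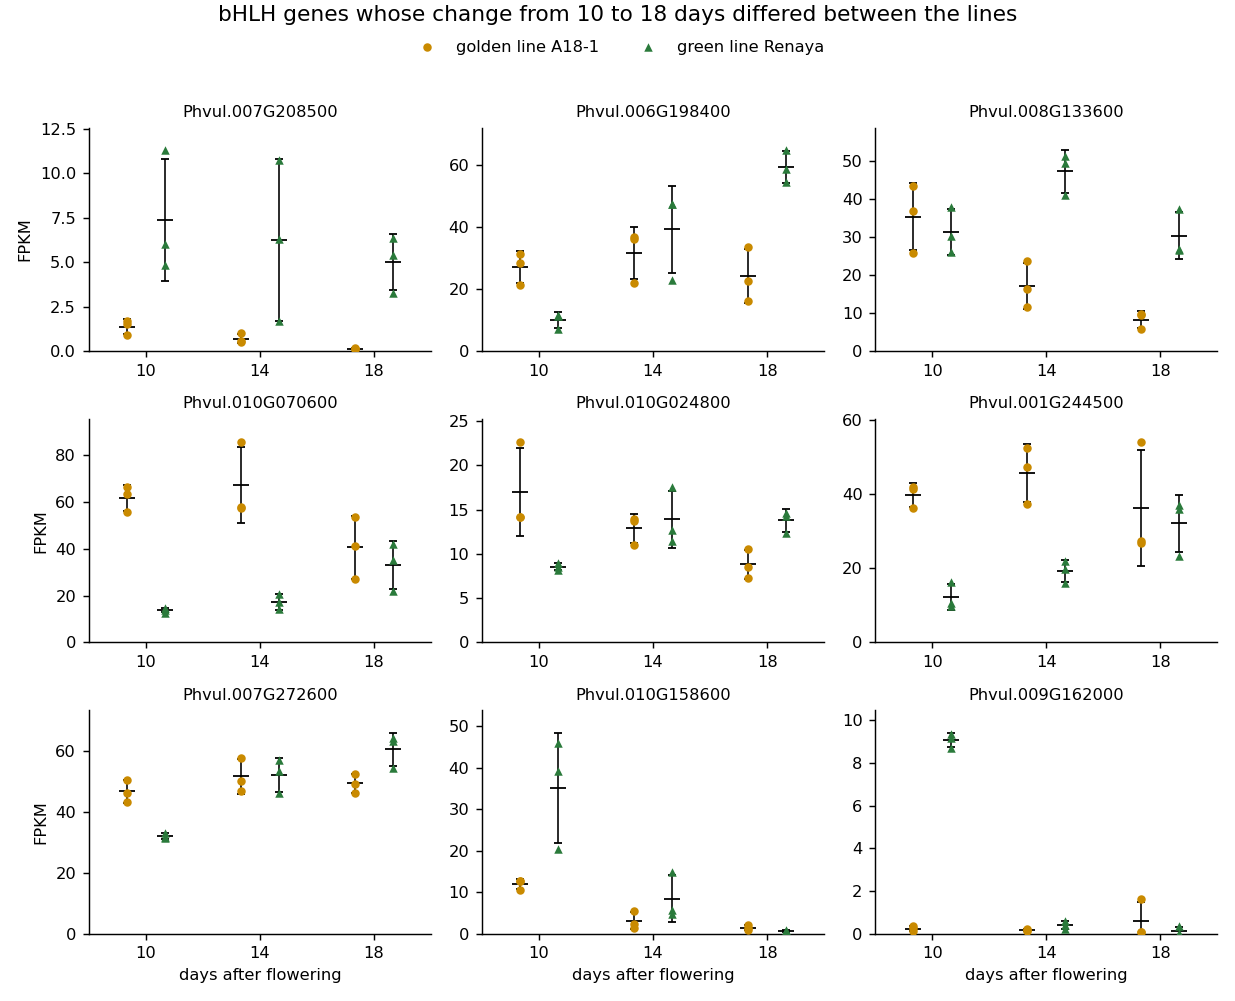
FPKM of the 9 bHLH genes whose change between 10 and 18 days differed between the lines, in each library against days after flowering, golden line A18-1 (circles, left at each age) and green line Renaya (triangles, right), with the mean and SD of 3 libraries as black bars cut at 0. Phvul.006G198400 climbs in green pods only, and Phvul.008G133600 declines in golden pods only, among the changes that were called.

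Partner proteins of the bHLH factors were read from lists of the table's descriptions. Beside their counts, 17.1% of all tested genes were higher and 15.5% lower in golden pods at 10 days, 20.4% and 21.2% at 14 days, and 7.99% and 6.99% at 18 days. Of 9 phytochromes and cryptochromes, the light receptors that PIFs and cryptochrome-interacting factors bind, 4 were higher and 1 lower in golden pods at 10 days, 6 were higher and none lower at 14 days, and 1 was higher at 18 days. With any 1 library left out, 3 to 4 were higher at 10 days and 5 at 14 days, and 4 were higher at 18 days without golden replicate 1. A cryptochrome 2 gene, Phvul.007G273300, averaged 8.83 ± 1.81 FPKM in golden and 2.71 ± 0.616 FPKM in green pods at 10 days, with log2 fold changes of 1.71 ± 0.32 SE (adjusted p = 0.0012) at 10 and 2.11 ± 0.32 SE (adjusted p = 0.00029) at 14 days. At 18 days 1 was also lower without golden replicate 2. Of 12 genes of the HY5, COP1 and SPA list, which act in light signalling beside the PIFs, 4 were higher and 1 lower at 10 days, 5 were higher at 14 days, and 2 were higher and 2 lower at 18 days. The lower gene at 10 days was lost without golden replicate 2 or 3 or green replicate 2. The higher count was 3 at 14 days without golden replicate 1, and at 18 days it was 4 without golden replicate 1 and 1 without any other single library. An SPA1-related 2 locus, Phvul.002G296004;Phvul.002G296008, was higher in golden pods at all 3 ages, with log2 fold changes of 1.78 ± 0.33 SE (adjusted p = 0.0011) at 10 days, 1.87 ± 0.33 SE (adjusted p = 0.00066) at 14 days and 1.92 ± 0.33 SE (adjusted p = 0.0015) at 18 days.

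JAZ proteins, which bind and hold back MYC-type bHLH factors until jasmonate removes them, were higher in golden pods at 14 days in 6 of 8 tested genes. That count was 1 without golden replicate 2 and 3 without green replicate 1 or 2. At 10 days 1 was lower, which became 2 without green replicate 2, and the call was lost without golden replicate 1, 2 or 3 or green replicate 1. Of 24 GRAS genes, the family of the DELLA proteins that bind PIFs, 4 were higher and 5 lower at 10 days. Without golden replicate 3 these were 1 and 1, and without any other single library 1 to 3 were higher and 2 to 5 lower. At 14 days 3 were higher and 1 lower, which became 1 and 1 without green replicate 1 and 2 and 2 without golden replicate 3 or green replicate 2. At 18 days 2 were lower, and 4 without golden replicate 2 or green replicate 3. Among 7 tested genes that the table names after helix-loop-helix proteins but whose descriptions fall outside the membership rule, 1 was higher and 2 were lower in golden pods at 14 days, and the higher call was lost without golden replicate 1. The lower pair were beta HLH protein 93 genes, Phvul.002G142800 (-2.15 ± 0.53, adjusted p = 0.0055) and Phvul.003G286400 (-2.38 ± 0.54, adjusted p = 0.0031).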

How the data were processed

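Poly(A) RNA of 18 pod wall libraries, 6 groups of 3, was sequenced as paired ends, per the labels' protocols. The authors deposited 1 table of 25124 genes with an FPKM value and an estimated count per gene and library, per the file headers. For the aligner, counter, genome build and use of strand, the sources used here give no name. All deposited counts were whole numbers and entered the tests as they were. Overlapping and near-identical genes may share reads, and a locus listed under 2 gene names was kept as 1 feature. Counts on features without a gene name made up 2.20% to 3.97% of each library. Total counts ran from 48757139 to 74377200. They set the precision of low values, and intervals and floors cover counting error only.

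Computed here, with R 4.3.3, Python 3.11.15, pandas 2.3.3 and numpy 2.4.6: 1 edgeR 4.0.16 quasi-likelihood fit (filterByExpr, TMM scaling, 1 mean per group, 12 residual degrees of freedom) over 22805 tested genes, after the filter dropped 2319. Benjamini-Hochberg adjustment ran over all tested genes, and a call needed an adjusted p below 0.05, whatever its fold. The SE of a log2 fold change is its size divided by the square root of F. P-values judge a difference between group means against the spread between replicates, which was estimated over all groups. The common dispersion was 0.155. No 2 replicates agreed within sampling noise. The fit was tested on simulated counts. Alternatives were DESeq2 1.42.0, upper-quartile scaling, no filter, a filter at 5 FPKM, limma 3.58.1 on log2(FPKM + 1) and log2(FPKM + 0.1), a fit of only the groups compared, a replicate block, and each library left out in turn.

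Named genes were, in each comparison, the 8 members called higher and the 8 called lower with the largest fold changes among those with at least 1 FPKM in a group compared, members described beyond the family, and the 5 most abundant. Members, lists and tests were chosen with earlier results of these data known, and the groups by GO term and the further genes of those groups were chosen after their values were seen. Promoter and protein sequences were not used here.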

Additional observations from a re-analysis of the deposited data

Results flagged for a closer look

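The test of whether the lines changed differently between 10 and 18 days passed for 9 bHLH genes. Values are the golden log2 change minus the green log2 change from edgeR. They were negative for Phvul.007G208500 (-2.66), Phvul.006G198400 (-2.58), Phvul.008G133600 (-1.93), Phvul.010G070600 (-1.75), Phvul.010G024800 (-1.51), Phvul.001G244500 (-1.38) and Phvul.007G272600 (-0.72). They were positive for Phvul.010G158600 (2.67) and for the stomatal gene Phvul.009G162000 (7.47). Differences of Phvul.006G198400, Phvul.008G133600, Phvul.010G024800 and Phvul.010G070600 passed with each library left out in turn.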

How the results depend on the processing

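Fitting only the groups compared gave 69 called members between the lines at 10 days and 6 at 18 days, against 38 and 27 in the fit of all libraries. DESeq2 called 42 members for the golden line's change with age (19 higher, 23 lower), against 25 (8 and 17), and 17 for the difference in change (7 higher, 10 lower), against 9 (2 and 7). For that difference, limma called 17 on log2(FPKM + 1) (10 higher, 7 lower) and 15 on log2(FPKM + 0.1) (8 higher, 7 lower). The split also shifted under limma at 10 days, to 22 higher and 22 lower on log2(FPKM + 1), and at 18 days, to 5 higher and 13 lower on log2(FPKM + 1) and 7 higher and 15 lower on log2(FPKM + 0.1). With at least 5 FPKM required, 20 were higher and 7 lower at 10 days. The causes were not tested. Leaving out 1 library gave 28 to 31 calls at 10 days, 43 to 58 at 14 days and 16 to 24 at 18 days between the lines, 14 to 38 for the golden and 35 to 45 for the green change with age, and 5 to 20 for the difference in change. Calls kept without each library in turn numbered 25, 37, 12, 11, 31 and 4 in that order. In the pairs of groups compared, same-numbered replicates did not deviate together over all genes (correlations -0.16 to 0.12), and the main fit pairs no samples. Other pairs of groups were not checked, and a batch acting on few genes would not show in this check. With a replicate block, 36, 58, 20, 21, 45 and 8 members were called in the same order. Of the 154 calls of named genes, 18 were lost with that block, among them the difference in change of Phvul.007G208500 (adjusted p = 0.056). The fit of only the groups compared lost 35 of them, limma lost 20 on log2(FPKM + 1) and 14 on log2(FPKM + 0.1), upper-quartile scaling lost 4, and DESeq2 and the fit without a filter lost 3 each. Over the named genes, none of these alternatives reversed a called direction. Depth limits members under 1 FPKM most, of which there were 29.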

Other observations

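Phvul.003G296500, known only by its family and chosen here after its values were seen, had 51.7, 72.1 and 60.7 FPKM in golden pods at 14 days, against 9.96, 19.0 and 17.9 FPKM in green pods. At 10 days it had 38.7, 20.6 and 37.8 FPKM in golden and 11.5, 17.6 and 11.4 FPKM in green pods. Golden libraries were above green ones at both ages, and the log2 fold changes by edgeR were 1.97 ± 0.29 SE at 14 days (adjusted p = 0.00024) and 1.28 ± 0.29 SE at 10 days (adjusted p = 0.0042).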
